A study of Ovis aries with 42 samples.

Results

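The pars tuberalis of cycling ewes was compared with that of anestrous ewes, as a contrast of season. All 21 pars tuberalis libraries of the 42 in the series were used. They comprised 7 luteal libraries (numbers 22 to 28), 7 follicular libraries (29 to 35) and 7 anestrous libraries (36 to 42), assigned by their labelled tissue and phase. The 14 luteal and follicular libraries formed the cycling side, with both phases weighted equally. Season is read from the phase labels alone, so season, ovarian state and any collection batch cannot be told apart. All animals were adult female Rasa Aragonesa sheep, a Spanish breed, and the labels give no treatment, genotype, sampling date or exact age. The labels do not say whether the 7 libraries of a phase came from 7 ewes, so p-values measure the spread between libraries. The other 21 libraries were hypothalamus from the same 3 phases and served only as a comparison tissue.

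The pars tuberalis is the part of the pituitary that sheathes the stalk beneath the hypothalamus. Its cells carry melatonin receptors and read the length of the night from the melatonin signal. In mammals, thyrotropin from these cells acts on the adjacent hypothalamus, where it sets local thyroid hormone conversion and, through it, seasonal reproduction. Sheep breed as days shorten. Ovarian cycles then alternate between a follicular phase, in which follicles mature and estradiol rises, and a luteal phase, in which the corpus luteum secretes progesterone. In anestrus the cycles stop.

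Expression was deposited as raw counts for 27054 Ensembl sheep gene IDs. None of these IDs (0) matched the reference gene table of 35057 genes, and the files pair them with no symbol. The melatonin, clock, thyrotropin and thyroid hormone genes therefore could not be looked up, and neither could markers of the pars tuberalis or of neighbouring tissue. Features are given by ID alone. The pars tuberalis libraries held from 14649356 to 28376173 counts. Luteal library 24 and anestrous library 36 stood apart from the others, and the season result is given with and without them. In a bulk sample, fewer cells of a type and less RNA per cell cannot be told apart.

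No feature passed the season test. Of 16301 features, edgeR's quasi-likelihood test called 0 (0%) at a Benjamini-Hochberg adjusted p of 0.05, and the lowest adjusted p was 0.439. At an unadjusted p under 0.05 there were 648 features (3.98%), 348 (2.13%) higher and 300 (1.84%) lower in the cycling pars tuberalis, where 5% of the features tested is 815. Under 0.01 there were 127 features against 163 at 1%, and under 0.001 there were 10 against 16. Of the 648, 437 differed by less than 1.5-fold and 86 by more than 2-fold, 50 of these higher and 36 lower in cycling ewes. In none of the features did the 14 cycling libraries lie wholly above or wholly below the 7 anestrous ones (0 of 16301). DESeq2 called 2 features (adjusted p = 0.0414 for both), described below, with 772 features at an unadjusted p under 0.05. Limma-voom with sample weights called 0, with 1045 such features, above the 815.

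**Figure D1:**
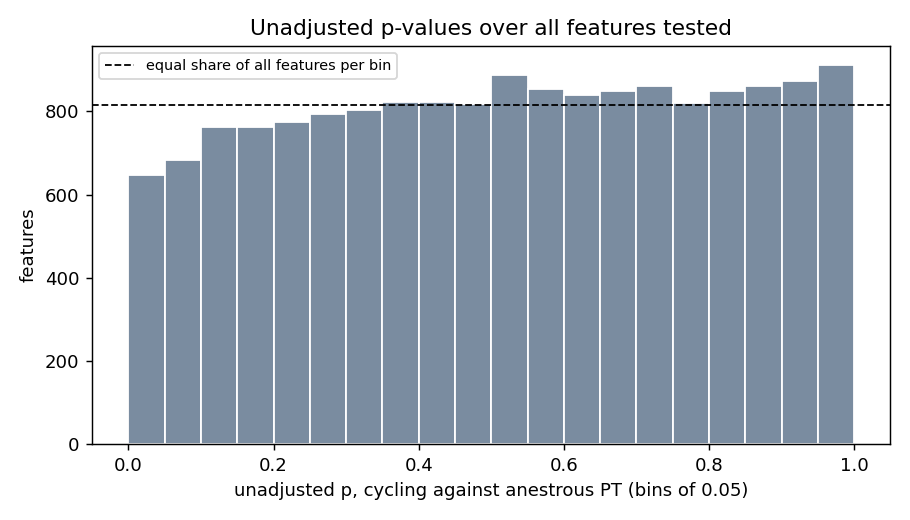
Number of features (vertical axis) in each bin of unadjusted p of width 0.05 (horizontal axis) for cycling against anestrous pars tuberalis, over 16301 features. The dashed line is an equal share per bin, and the lowest bin, with 648 features, lies below it.

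The precision of the season difference depended on the level of a feature. Levels are given in CPM, counts scaled to the TMM-adjusted size of the 21 pars tuberalis libraries. Over all features, the standard error of the log2 season difference had a median of 0.165. When the features were split by mean level into 5 classes of equal size, it was 0.404 in class 1 (0.184 to 2.12 CPM), 0.204 in class 2, and 0.105 in class 5 (49.8 CPM and above). For 13726 features (84.2%) the 95% interval of the season difference lay wholly within a 2-fold change in either direction, and for 10327 (63.4%) wholly within 1.5-fold. These intervals are not adjusted for their number. In class 1, 1339 of 3261 features (41.1%) were bounded within 2-fold, and in class 5, 3213 of 3260 (98.6%). For most features of class 1 a 2-fold seasonal difference was neither called nor bounded. The share of features with an unadjusted p under 0.05 ran from 3.19% in class 5 to 5.18% in class 2.

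**Figure D2:**
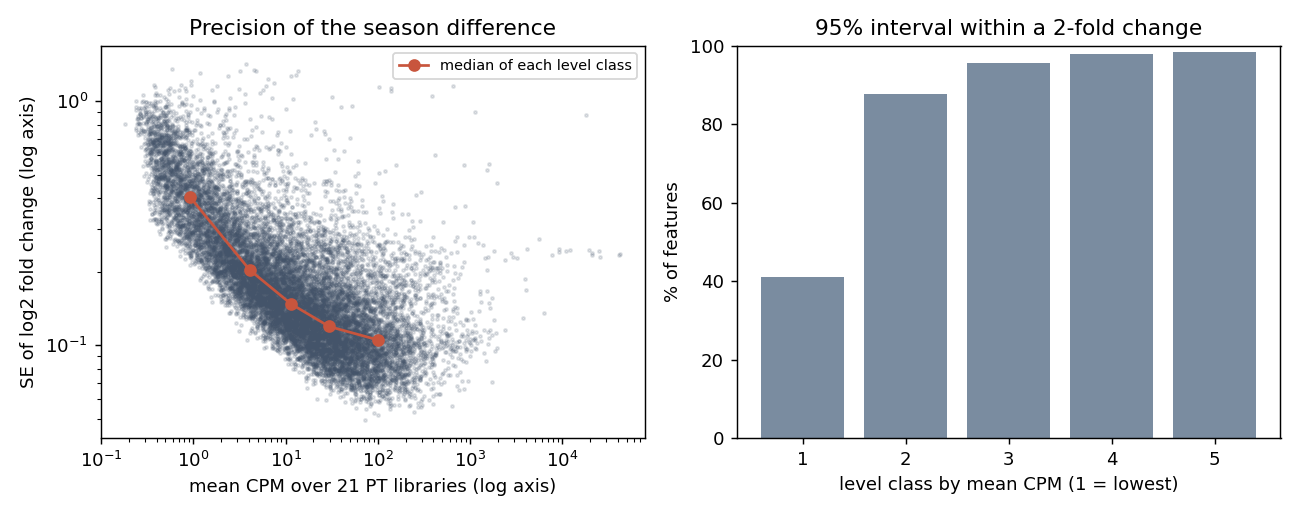
Left, standard error of the log2 season difference (log axis) against mean CPM over the 21 pars tuberalis libraries (log axis), 1 point per feature, with the median of each of 5 level classes joined by a line. Right, percent of features in each class whose 95% interval lay within a 2-fold change, from 41.1% in class 1 (lowest level) to 98.6% in class 5.

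The most abundant features formed a small set with a common sign. The 15 features with a mean of at least 5000 CPM, a limit chosen after the values were seen, took 25.7% of all pars tuberalis counts. Their fitted season difference was below 0 in all 15, with a median log2 fold change of -0.12 and a range from -1.45 to -0.08. None of the 15 reached an unadjusted p under 0.05 in the main edgeR fit, and their median standard error was 0.241, above the 0.105 of level class 5. In the edgeR fits without library 27, without library 31, with surrogate variables and with the top 10 percentage as a covariate, 1 of the 15 did. The median moved with single libraries and settings in both directions. Without library 36 it was -0.01 (13 of 15 below 0) and without library 38 -0.03 (11 of 15), while it was -0.25 without library 24, -0.21 without library 39 and -0.36 with the library total as a covariate (15 of 15 in each). It also shrank to -0.06 without each of libraries 22, 23 and 28 and to -0.08 without library 33, with 15 of 15 below 0. A fit adjusted for the percentage of counts in the top 10 features turned it to 0.12 (2 of 15). That covariate is itself the share of the largest features of each library, so it is not independent of these levels. The cause of the shift was not tested. They are large shares of the same libraries, so the 15 are not separate observations. Over all 16301 features the median log2 fold change was 0.01, with 8465 above and 7836 below 0.

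The 2 features with the lowest p among those lower in cycling ewes, and the 2 among those higher, are described next, all at a mean of at least 1 CPM. Since low p in these same libraries was the ground for choosing them, the separation of their groups is a description, and edgeR called none of the 4.

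ENSOARG00000015730 lay lower in both cycle phases than in anestrus. Its lowest, median and highest levels were 2.54, 3.62 and 4.70 CPM in the luteal phase, 2.06, 3.42 and 4.50 CPM in the follicular phase, and 4.51, 6.11 and 8.38 CPM in anestrus. All 7 follicular and 5 of 7 luteal libraries lay below every anestrous library, and all 14 cycling libraries lay below the anestrous median. The mean was 3.52 ± 0.836 CPM over the cycling libraries (SD, n = 14) and 6.15 ± 1.25 CPM in anestrus (SD, n = 7). This was a log2 fold change of -0.80 ± 0.159 SE (95% interval -1.13 to -0.47, edgeR adjusted p = 0.439), or 0.574 times the anestrous level. DESeq2 called the feature (log2 fold change -0.79, adjusted p = 0.0414).

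ENSOARG00000011149 was the other feature that DESeq2 called (log2 fold change -0.63, adjusted p = 0.0414). It ranged from 13.3 to 19.4 CPM with a median of 16.4 CPM in the luteal phase, from 10.5 to 18.6 CPM with a median of 12.96 CPM in the follicular phase, and from 15.9 to 29.7 CPM with a median of 22.7 CPM in anestrus. The groups overlapped through anestrous library 40, which held the lowest anestrous value. In the cycling libraries 5 of 7 follicular and 3 of 7 luteal values lay below it. The means were 15.1 ± 2.88 CPM (SD, n = 14) and 23.5 ± 4.98 CPM (SD, n = 7), a log2 fold change of -0.64 ± 0.128 SE (95% interval -0.90 to -0.37, edgeR adjusted p = 0.439). Without library 40 the log2 fold change was -0.71 and the edgeR adjusted p 0.174, the lowest that any left-out library gave.

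ENSOARG00000005412 lay higher in cycling ewes. Its lowest, median and highest levels were 21.9, 30.4 and 33.3 CPM in the luteal phase, 24.3, 27.5 and 35.2 CPM in the follicular phase, and 18.3, 20.8 and 28.5 CPM in anestrus. Anestrous library 39, at 28.5 CPM, lay well within the cycling range, and anestrous library 40 matched the lowest cycling value of 21.9 CPM. In the cycling libraries 5 luteal and 3 follicular values lay above library 39, and all 14 cycling libraries exceeded the anestrous mean. The means were 29.1 ± 4.05 CPM (SD, n = 14) and 21.4 ± 3.39 CPM (SD, n = 7). The log2 fold change was 0.44 ± 0.104 SE (95% interval 0.22 to 0.65, edgeR adjusted p = 0.9999), and 0.52 without library 39.

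ENSOARG00000010982 also lay higher in cycling ewes. Its anestrous levels ran from 14.1 to 18.2 CPM with a median of 16.3 CPM. The luteal levels ran from 17.9 to 25.1 CPM with a median of 20.03 CPM, and the follicular levels from 17.02 to 25.7 CPM with a median of 21.5 CPM. Of the cycling libraries, 6 of 7 in each phase lay above the highest anestrous library. The means were 21.01 ± 2.71 CPM (SD, n = 14) and 16.3 ± 1.41 CPM (SD, n = 7), and the log2 fold change was 0.37 ± 0.0900 SE (95% interval 0.18 to 0.55, edgeR adjusted p = 0.9999).

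**Figure D3:**
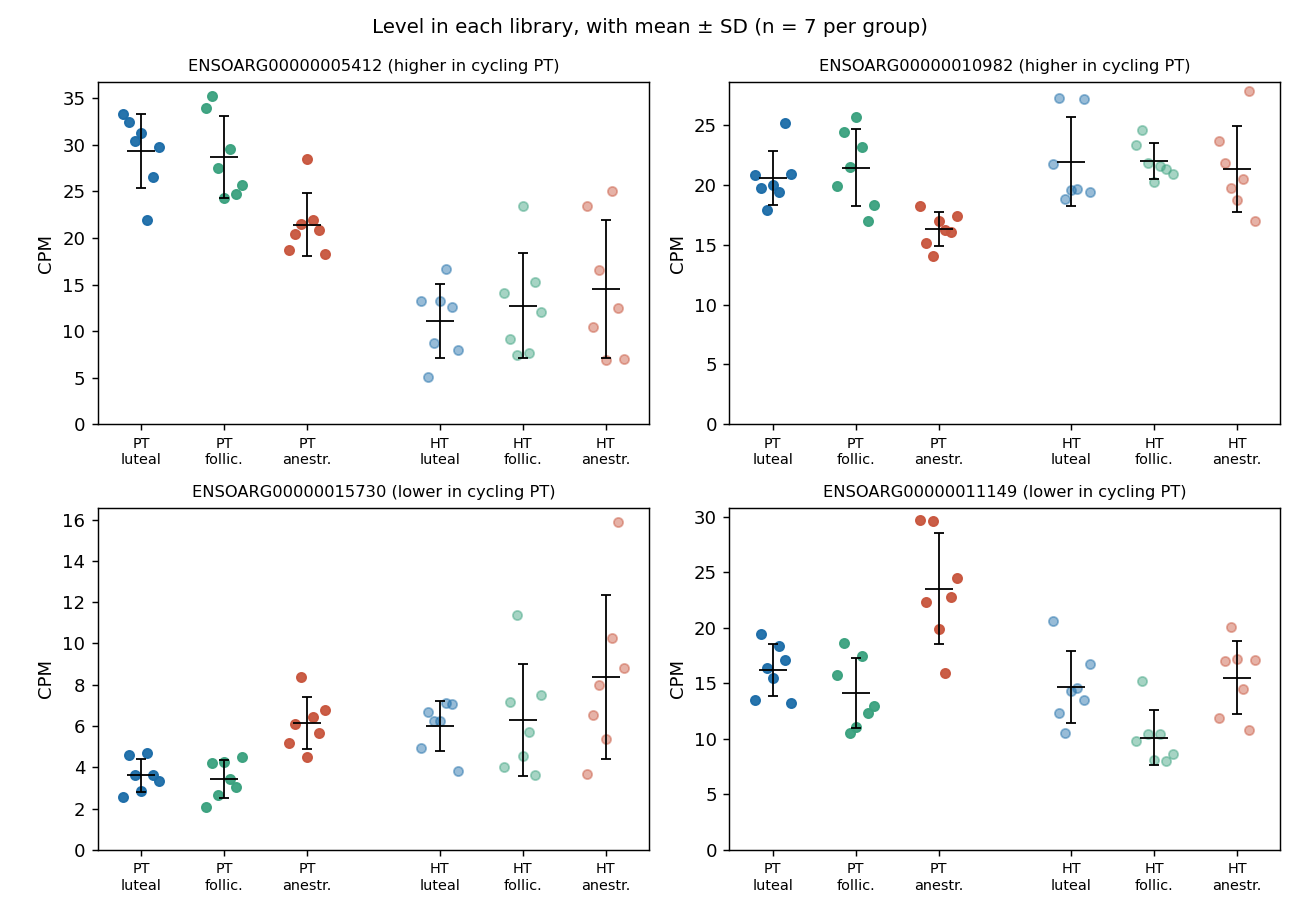
CPM in each library (points) of the 4 features described (in either direction the 2 of lowest p), by tissue (PT, pars tuberalis; HT, hypothalamus) and phase, with mean ± SD (bars, n = 7 per group). In the pars tuberalis every one of the 14 luteal and follicular points lies on 1 side of the anestrous mean for each feature, with overlap at the edges, and in the hypothalamus the groups overlap broadly.

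Both cycle phases differed from anestrus in the same direction for each of the 4 features. Their choice by the average of both phases favours this. The luteal and follicular differences share the anestrous libraries, so they are set side by side as values only. ENSOARG00000015730 had a log2 fold change of -0.77 ± 0.190 SE for luteal and -0.84 ± 0.189 SE for follicular against anestrus, and ENSOARG00000011149 had -0.53 ± 0.151 SE and -0.74 ± 0.151 SE. ENSOARG00000005412 had 0.45 ± 0.118 SE and 0.42 ± 0.118 SE, and ENSOARG00000010982 had 0.34 ± 0.103 SE and 0.40 ± 0.102 SE. The difference between the 2 cycle phases was tested directly. Luteal minus follicular was 0.07 (95% interval -0.33 to 0.46) for ENSOARG00000015730, 0.20 (-0.11 to 0.52) for ENSOARG00000011149, 0.03 (-0.21 to 0.28) for ENSOARG00000005412 and -0.06 (-0.27 to 0.15) for ENSOARG00000010982, on the log2 scale. The edgeR adjusted p of these 4 differences ran from 0.733 to 0.961, which does not show that the phases are alike.

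Across all features, the separate phases gave other counts than the season contrast. At an unadjusted p under 0.05 there were 526 features (3.23%) for luteal against anestrus, 1055 (6.47%) for follicular against anestrus, and 1380 (8.47%) for luteal against follicular, and edgeR called 0 in each. The season contrast, which averages the phases, thus had fewer such features (648) than the contrast between the 2 cycle phases. Its median standard error was 0.165, below the 0.191 of each single-phase contrast, since 14 libraries stood on its cycling side.

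The same contrast in the hypothalamus was larger in count and in spread. There edgeR also called 0 of 16350 features (lowest adjusted p = 0.116), with 1516 (9.27%) below an unadjusted p of 0.05. Of these, 562 (3.44%) lay higher and 954 (5.83%) lower in cycling ewes. The median standard error was 0.219, and 12003 features (73.4%) had a 95% interval within a 2-fold change. The difference of the season effects, pars tuberalis minus hypothalamus, was tested with all 42 libraries. It called 0 of 17296 features (lowest adjusted p = 0.101), with 1001 (5.79%) below an unadjusted p of 0.05, 666 (3.85%) with a higher and 335 (1.94%) with a lower season effect in the pars tuberalis. DESeq2 called 37 (34 higher and 3 lower), of which 3 were fitted at differences past 10 in log2 units, too large to be read as sizes. Hypothalamus library 15 was left out of another fit because earlier results of these data had shown it apart from its group. The calls of that fit are therefore a description, with edgeR calling 33 of 17391 features (28 higher, 5 lower). Of these 33, 23 were among the 37, both sets coming from nearly the same libraries, and none of the 4 features named here was in either set. The split at an unadjusted p under 0.05 moved with the setting. It was 1182 higher and 1078 lower without library 15, and 883 and 859 with limma-voom. With DESeq2 it was 759 and 344, with RLE scaling 703 and 313, and with no filter 913 and 552. Adjusted for the percentage of counts in the top 10 features, it was 683 and 473. The hypothalamus season split was not refitted without library 15.

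In the hypothalamus the 4 features overlapped between seasons, as they also did in the pars tuberalis. Their choice by low p in the pars tuberalis favours a larger season difference there than in the hypothalamus. The values of the 2 tissues are therefore set side by side as a description. ENSOARG00000015730 lay at 6.15 ± 2.02 CPM over 14 cycling and 8.36 ± 3.97 CPM over 7 anestrous hypothalamus libraries (SD), with a log2 fold change of -0.44 (95% interval -0.95 to 0.07). ENSOARG00000011149 had means of 12.4 ± 3.64 and 15.5 ± 3.28 CPM, and a log2 fold change of -0.35 (-0.66 to -0.04). The sign in both was that of the pars tuberalis. ENSOARG00000005412 had means of 11.9 ± 4.75 and 14.5 ± 7.44 CPM, and its log2 fold change was -0.30 (-0.88 to 0.28). ENSOARG00000010982 had means of 21.97 ± 2.72 and 21.3 ± 3.59 CPM, and its log2 fold change was 0.04 (-0.18 to 0.26). The difference between tissues was 0.73 ± 0.303 SE for ENSOARG00000005412 and 0.32 ± 0.136 SE for ENSOARG00000010982 (edgeR adjusted p = 0.757 and 0.782). For ENSOARG00000015730 it was -0.37 ± 0.302 SE and for ENSOARG00000011149 -0.29 ± 0.201 SE (edgeR adjusted p = 0.931 and 0.910). No difference between tissues passed the adjustment for these features.

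**Figure D4:**
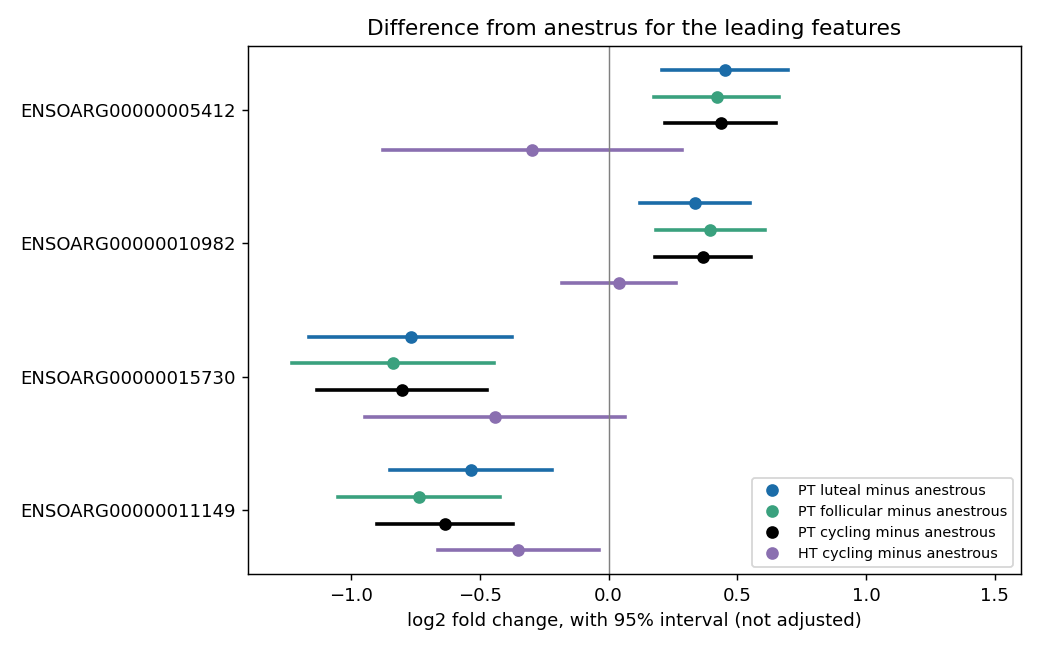
Log2 fold change against anestrus (horizontal axis) with its unadjusted 95% interval for the 4 features, for luteal, follicular and all cycling pars tuberalis and for cycling hypothalamus. The luteal and follicular pars tuberalis intervals lie on the same side of 0 for each feature, and the hypothalamus intervals of 3 features cross 0. The features were chosen by low p in the pars tuberalis.

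The libraries themselves were compared by season on 6 measures, with an exact two-sided permutation test over all 116280 assignments of 7 of the 21 libraries to anestrus. Total counts were 21035786 ± 3364970 in the luteal, 22771936 ± 2919405 in the follicular and 25257648 ± 4821117 in the anestrous libraries (SD, n = 7 each). Cycling minus anestrous was -3353787 counts (exact permutation p = 0.0693, Benjamini-Hochberg adjusted p = 0.211 over the 6 measures). Library 36 was the shallowest of all at 14649356 counts, and the other 6 anestrous libraries lay between 25019148 and 28376173. Of the 14 cycling libraries, 3 exceeded the lowest of these 6. Without library 36, cycling minus anestrous was -5121836 counts (exact permutation p = 0.00165, adjusted p = 0.00991). Library 36 was left out for its low total, which is the value tested, so that p is a description and does not show a difference in depth. With the log2 of the library total as a covariate, chosen after the data were seen, edgeR called 0 features and 1355 lay at an unadjusted p under 0.05. In that fit the log2 fold change was -0.70 for ENSOARG00000015730, -0.65 for ENSOARG00000011149, 0.45 for ENSOARG00000005412 and 0.34 for ENSOARG00000010982 (edgeR adjusted p from 0.312 to 0.512).

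None of the 6 measures passed with all 21 libraries. The largest feature of a library took 3.98 ± 0.999% of the counts in cycling (SD, n = 14) and 4.90 ± 1.11% in anestrous libraries (SD, n = 7; exact permutation p = 0.0702, adjusted p = 0.211). The 10 largest took 21.9 ± 5.73% and 24.7 ± 4.33% (exact permutation p = 0.267, adjusted p = 0.535). Features with at least 1 count numbered 18241 ± 394 and 18195 ± 438 (exact permutation p = 0.815, adjusted p = 0.815). The first principal component of log2 CPM held 14.4% of the variance and the second 10.2%, and their scores gave exact permutation p-values of 0.704 and 0.488 (adjusted p = 0.815 and 0.731).

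Luteal library 24 and anestrous library 36 stood apart from the rest. Library 24 had a first-component score of 126.2 and gave 35.2% of its counts to its 10 largest features. Library 36 had a second-component score of 91.4. Their correlations with the mean log2 CPM of the rest of their phase, across features, were 0.923 and 0.934, against 0.9503 to 0.972 for the other 19 libraries. These were the 2 shallowest libraries, at 15477537 and 14649356 counts. Without both, edgeR called 0 features and 704 lay at an unadjusted p under 0.05. The log2 fold changes were then -0.83, -0.57, 0.41 and 0.41 for ENSOARG00000015730, ENSOARG00000011149, ENSOARG00000005412 and ENSOARG00000010982. Within phases, the median standard deviation of log2 CPM over features was 0.354 luteal, 0.347 follicular and 0.321 anestrous, and 0.310 and 0.299 for luteal without library 24 and anestrous without library 36 (n = 6 each).

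**Figure D5:**
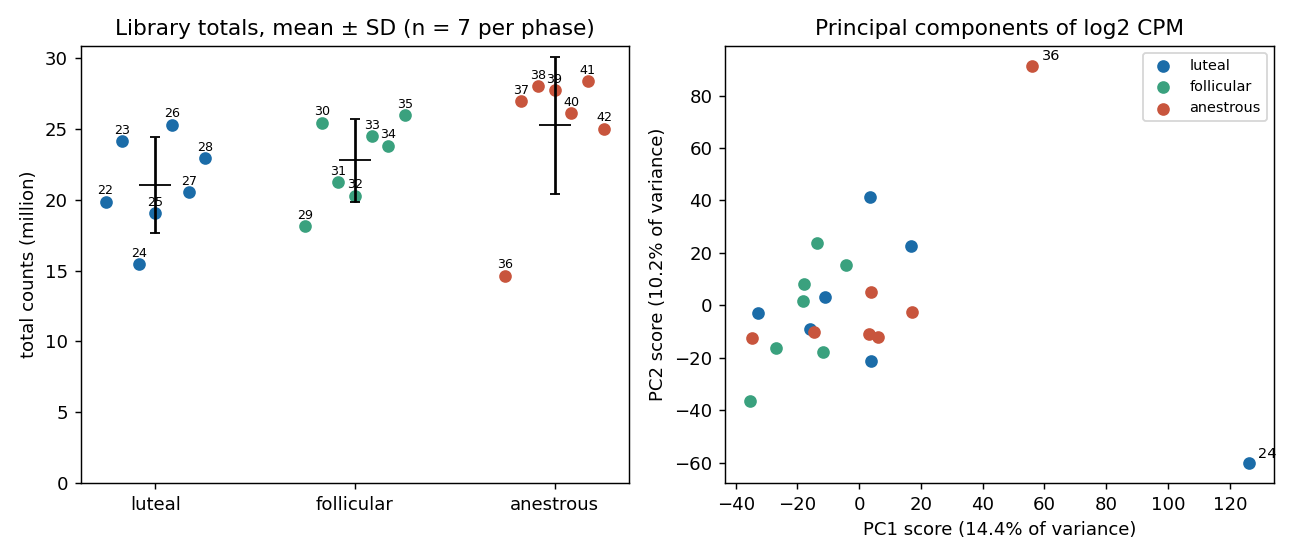
Left, total counts of the 21 pars tuberalis libraries by phase, numbered, with mean ± SD (n = 7 each); 6 anestrous libraries lie between 25019148 and 28376173 counts and library 36 at 14649356. Right, scores on the first 2 principal components of log2 CPM (14.4% and 10.2% of variance), coloured by phase; the phases intermix, and libraries 24 and 36 lie apart.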

How the data were processed

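The authors deposited raw counts per Ensembl sheep gene ID for 42 libraries. Per the labels' protocols, total RNA with an integrity number above 7 was extracted from about 0.5 g of frozen tissue and sequenced on an Illumina platform. The submitters' processing notes name HISAT2 2.1.0, StringTie 1.3.5, SAMtools 1.7, Trimmomatic 0.38 and FastQC 0.11.5 alongside R 3.5.1 and DESeq2, without their roles. Build, annotation and strand: not given in the sources used here. Counts of overlapping or near-identical genes are therefore uncertain. No column lacked a sample (0).

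Pars tuberalis totals ran from 14649356 to 28376173 counts. No columns were identical (0). The closest pair, libraries 28 and 39, differed well beyond sampling noise (chi-square per degree of freedom 22.5).

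Counts were fitted with edgeR 4.0.16 in R 4.3.3 (robust quasi-likelihood F test, two-sided, TMM, filterByExpr with a minimum count of 10, Benjamini-Hochberg threshold 0.05). The 21 pars tuberalis libraries had 1 mean per phase, with the contrast of the luteal and follicular average minus anestrus. Fold changes and intervals come from the fitted means. Levels in CPM were scaled per tissue, and log2 CPM used a pseudocount of 0.5. Alternatives used DESeq2 1.42.0, limma-voom (limma 3.58.1), sva 3.50.0 (5 surrogate variables), other scalings, filters and covariates, and left-out libraries. The code was tested on simulated data.

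Named features were in either direction the 2 of lowest p, at a mean of at least 1 CPM. The contrast, the rule and the settings were chosen with earlier results of these data known. Gene lists and cell type markers could not be used without names.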

Additional observations from a re-analysis of the deposited data

Results flagged for a closer look

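In 42 sets of 7 libraries (the 4 named features in 6 groups of both tissues, and 6 library measures in the 3 pars tuberalis phases), 6 held a library whose gap to its nearest neighbour exceeded Dixon's 95% critical share of the range of its group. About 1 in 20 sets is flagged by chance in this way. Library 36 was flagged among the anestrous libraries for its total of 14649356 counts and for its second-component score of 91.4, and luteal library 24 for its first-component score of 126.2. For ENSOARG00000005412 anestrous library 39 stood apart at 28.5 CPM. For ENSOARG00000010982 luteal library 27 stood apart at 25.1 CPM. For ENSOARG00000011149 follicular hypothalamus library 9 stood apart at 15.2 CPM.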

How the results depend on the processing

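The count of 0 features called for season held under RLE scaling, limma-voom, both filters, cycling libraries as one group, covariates, surrogate variables, a test against 1.2-fold and every left-out library (0 to 0), while DESeq2 called 2. The main count at an unadjusted p under 0.05, 648 of 16301, lay below the 815 that is 5%. It was 1045 with limma-voom, 1352 of 22501 features with no filter and 1355 with the library total as a covariate. Without luteal libraries 22, 23 and 24 it was 987 of 16767, and with surrogate variables 885. Each of these alternative counts exceeded 5% of the features tested. Counts of 772 with DESeq2, 767 with the top 10 percentage as a covariate, 665 with RLE scaling and 628 with cycling libraries as one group lay below 815. When 1 library was left out, the count ran from 545 (without library 36) to 925 of 16454 (without library 24, also above 5%). The cause of these shifts was not tested. The 4 named features kept their sign under all 32 alternatives. Their log2 fold changes ran from -0.86 to -0.70 for ENSOARG00000015730, -0.71 to -0.57 for ENSOARG00000011149, 0.32 to 0.52 for ENSOARG00000005412 and 0.33 to 0.41 for ENSOARG00000010982. With DESeq2 the adjusted p was 0.0414 for the first 2 and 0.149 for the other two, and 0.174 was the lowest elsewhere. The features bounded within 2-fold, 13726 of 16301, numbered 13725 of 22501 with no filter, 13474 of 14859 at 1 CPM in 7 libraries and 13690 with the cycling libraries as one group, so their share depends on the filter. The season difference between tissues gave 37 calls with DESeq2, 33 without hypothalamus library 15, and 0 under the other 4 settings.

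Leaving out 1 library moved the season difference in total counts from -5121836 to -2834033, passing the threshold without library 36 (-5121836), the anestrous library of lowest total, and without libraries 24 and 36 (-4627503, exact permutation adjusted p = 0.00818). The difference in features with a count ran from -91.9 to 121.6 and turned sign without library 23 (-3.97), 36 (-91.9), 38 (-0.524), or 24 and 36 (-23.8). That in the first-component score ran from -17.8 to 0.551 (without library 36). That in the second-component score ran from -13.7 to 3.77 (without library 36) and was 8.14 without libraries 24 and 36. No paired analysis was possible because library numbers differ between all groups and no label ties libraries to ewes. The standard error was largest at low level, and depth itself was not varied.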
